A study of Homo sapiens and Mus musculus with 9 samples.

Results

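Translation factors and aminoacyl-tRNA synthetases were followed across ribosome profiling and small RNA libraries of HEK293, a human embryonic kidney cell line. The members were chosen by name, from the genes listed in the small RNA peak lists: names starting with EIF or EEF, names of tRNA synthetases, and PABPC1, ETF1, AIMP1 and AIMP2 where listed. This gave 44 genes of the 5745 named genes, each with 1 transcript. Footprints could be read for 30 of them, and the other 14 had small RNA peaks but no usable footprint values.

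The Ribo-seq libraries came from wild-type HEK293 cells under 4 conditions with 1 library each: a control, starvation, and starvation with a transfected trans-RNA against ATF4 in a pair of libraries called trans1 and trans2 here. A trans-RNA is in this study an RNA meant to act on translation of a target mRNA, and ATF4 is a transcription factor made when cells are stressed. Trans1 and trans2 carry the same treatment label, which does not say whether they are repeats, nor what the starvation medium lacked or how long it lasted. The small RNA libraries came from wild-type HEK293 cells with no treatment named: 1 of total small RNA and 1 enriched for capped RNA, in which RNA was dephosphorylated and then decapped so that ends once protected by a cap could be ligated. Mouse liver libraries of the series are not described here.

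No group has a replicate, so no test of a difference between groups was possible and no p-value is given. Intervals in brackets are exact 95% (Clopper-Pearson) intervals of counting error alone and do not cover the spread between cultures. For footprint ratios they count each read as a separate molecule, although reads were not tied to single molecules by identifiers. For shares of members or of peaks they count each gene or peak as a separate draw, although the members were chosen by name. Recovered footprints numbered 10682712 (control), 9391653 (starvation), 6141312 (trans1) and 7553025 (trans2). HEK293 RNA-seq was not used here, so a change in mRNA level and a change in translation cannot be told apart. In a bulk lysate, fewer cells of a type and less RNA per cell cannot be told apart either. Of the cell line's markers, LIN28B had 33.5 to 55.8 CPM (footprints per 1000000 recovered) and NEFL 68.8 to 90.6, while NEFM, VIM and LHX1 were not among the genes that could be named here.

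Initiation begins when the factors EIF1, EIF1A and EIF3 prepare the small ribosomal subunit and EIF2 brings the initiator tRNA. EIF4E binds the mRNA cap, EIF4G holds it to EIF4A, an RNA helicase, and EIF3 links the mRNA to the ribosome. Elongation factors then deliver aminoacyl-tRNAs and move the ribosome, and synthetases charge each tRNA with its amino acid. In amino acid shortage the kinase EIF2AK4 (GCN2) phosphorylates EIF2, which lowers most initiation and raises translation of ATF4. ATF4 in turn is known to activate genes of several cytosolic synthetases. Many mRNAs for elongation factors and some for initiation factors start with a C followed by a pyrimidine run, the 5′ terminal oligopyrimidine (TOP) motif, through which mTOR signalling controls their translation.

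The starts of 8 member genes are shown because capped small RNAs are read from the 5′ end of an RNA, and because the TOP motif sits at that end. The sequences are from RefSeq (GRCh38.p14), with 15 bases before the annotated start and 15 from it onwards. Capitals mark the first transcribed base and, in genes with a TOP start, the pyrimidine run that begins there. The 8 were the 6 members with a TOP start and 2 others with a capped peak at or next to the annotated start.
EEF1A1: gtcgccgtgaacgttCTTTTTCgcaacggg
EEF2: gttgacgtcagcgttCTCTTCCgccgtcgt
EIF2D: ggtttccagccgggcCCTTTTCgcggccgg
EIF2S3: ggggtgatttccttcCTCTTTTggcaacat
EIF4A2: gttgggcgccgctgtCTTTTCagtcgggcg
EIF4B: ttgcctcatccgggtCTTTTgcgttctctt
EIF4A1: aggcgggcactccgcCctagtttctaagga
RARS1: tttccgcttccgtccActtggcgagtgaga

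A TOP start was counted where the first base is C and at least 4 bases that are C or T follow directly, on the strand of the gene. Of the 44 members, 36 had a RefSeq entry and 28 had exactly 1 RefSeq start. Of these 28, 6 (21.4%) had a TOP start, against 880 of 22114 genes with 1 start (3.98%). The starts lie at chr6:73521032 on the minus strand (EEF1A1, which delivers aminoacyl-tRNA to the ribosome), chr19:3985463 minus (EEF2, which moves the ribosome by 1 codon), chr1:206612465 minus (EIF2D, which can bring tRNA to the ribosome without EIF2), chrX:24054956 plus (EIF2S3, the gamma subunit of EIF2), chr3:186783577 plus (EIF4A2, a helicase paralogous to EIF4A1) and chr12:53006456 plus (EIF4B, which stimulates EIF4A). The starts of EIF4A1 (chr17:7572825 plus) and RARS1 (chr5:168486471 plus) lack the motif. EIF4A1 begins with C, but a purine stands within the next bases.

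Together the 30 members with footprints took 9829 CPM in control, then 10259, 9372 and 9569 CPM in starvation, trans1 and trans2, about 1% of all recovered footprints in each library. CPM are recovered reads of a transcript per 1000000 recovered reads of the library. Levels of different genes were compared per kb of coding length (CPM per kb). By this measure the order began with EIF1AX (mean of the 4 libraries 3833 CPM per kb), EIF1 (2875), EIF4A1 (1598), EIF5A (1087) and EIF2S2 (957). EIF1AX and EIF1 help the ribosome select the start codon, EIF5A relieves stalled elongation, and EIF2S2 is the beta subunit of EIF2. The lowest were AARS2 (4.77 CPM per kb), VARS1 (5.94), TARS2 (8.57), EIF2AK4 (9.73) and EPRS1 (9.77). The ranges of neighbours mostly overlapped over the 4 libraries, as for EIF5A (823 to 1561 CPM per kb) and EIF2S2 (747 to 1107). EIF1 and EIF1B, and EIF4A1 and EIF4A2, are close paralogs, and the sources used here do not say how reads that match both were placed.

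**Figure D1:**
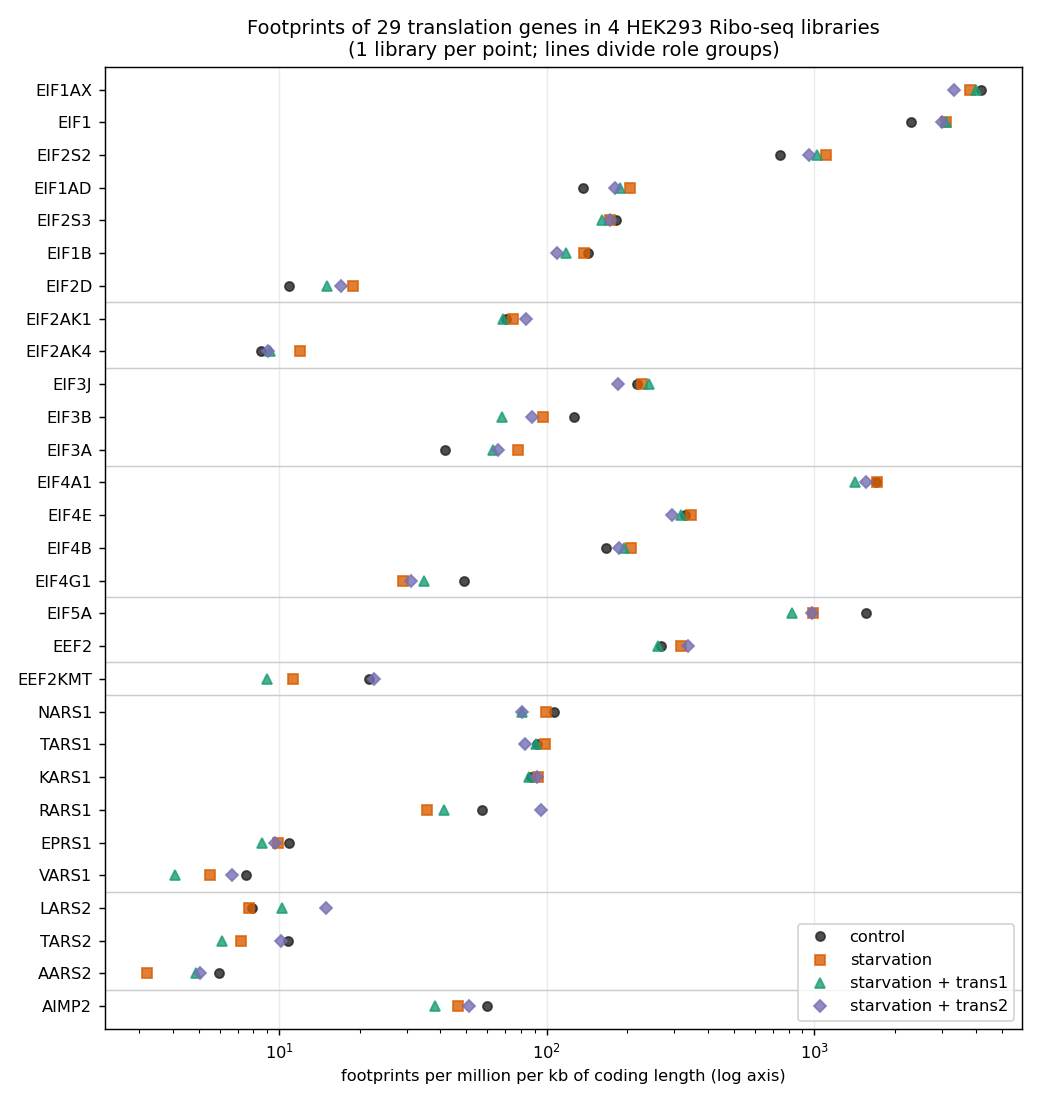
Footprints in CPM per kb of coding length (log axis) of 29 member genes, 1 symbol per Ribo-seq library, with lines between role groups. EIF1AX stood highest at 3309 to 4181 CPM per kb and AARS2 lowest at 3.20 to 5.94.

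Under starvation, no member was at least 2-fold higher (all transcripts 2.55%) and none at least 2-fold lower (all transcripts 1.88%) than in control. The ratios are log2((b + 1)/(a + 1)) of CPM, a scale that understates the change of low genes. Their intervals were computed from the reads without the added 1 CPM, so they need not centre on the printed ratio. The members spread from -0.89 to 0.91 around a median of -0.01, and 10201 transcripts had a median of -0.0017. 15 of 30 members were above 0, against 49.9% of all transcripts. The intervals of 10 members lay wholly above 0 and those of 10 others wholly below, so counting error alone did not cover these differences, but the spread between cultures is not known. Intervals were not counted over all transcripts, so these counts do not set the members apart. Over the 3 comparisons, a member's ratio from the window around the start codon alone had the other sign in 28 of 90 cases, and from the window around the stop codon alone in 29 of 86. The windows hold fewer reads and no intervals were computed for them. Counting error and place along the transcript therefore cannot be told apart in these counts.

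Of the 7 factors grouped with start codon selection and the initiator tRNA, 4 were above 0. EIF2S2 had 750 CPM in control, then 1112, 1024 and 959 CPM in starvation, trans1 and trans2. Control was the lowest library, and starvation against control gave 0.57 [0.53 to 0.61]. The start window alone gave 0.52 for EIF2S2 and the stop window -0.016, from 713 reads in control and 629 in starvation. EIF1 had 793 CPM in control and 1070, 1073 and 1031 CPM in starvation, trans1 and trans2. All 3 starved libraries thus stood above control, with 0.43 [0.39 to 0.47] for starvation alone. Here and for the other members, the 3 starved libraries are set beside the same single control library and are not independent comparisons. How often control stands highest or lowest over all transcripts was not counted. EIF1AD, which carries a domain like that of EIF1A, had 68.3 CPM in control and 102, 94.0 and 90.0 CPM in the starved libraries (0.58 [0.44 to 0.72]). EIF2D had 19.2 CPM in control against 33.1, 26.5 and 29.9 CPM (0.76 [0.53 to 1.05]). For EIF2D the window around the start codon alone gave 1.28 and the window around the stop codon -0.07. EIF1AX, by contrast, had 1831 CPM in control and 1674 in starvation (-0.13 [-0.16 to -0.10]). EIF2S3 had 258 and 245 CPM (-0.08 [-0.16 to 0.01]), and EIF1B, the paralog of EIF1, had 49.3 and 47.4 CPM (-0.06 [-0.24 to 0.13]).

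The 3 subunits of EIF3 with footprints differed among themselves. EIF3A, the largest subunit and part of the core, had 173 CPM in control, then 325, 262 and 273 CPM in starvation, trans1 and trans2. Its ratio of 0.91 [0.83 to 1.00] was the highest of all members under starvation, and each starved library stood above control. EIF3B, another core subunit, had 308 CPM in control, then 238, 166 and 215 CPM in starvation, trans1 and trans2, so that control was highest (-0.37 [-0.45 to -0.30]). EIF3J, a loosely bound subunit, had 170 and 177 CPM (0.06 [-0.04 to 0.16]). The EIF3A value did not hold in all parts of the transcript: the start window alone gave -1.10 and the stop window 0.74.

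Of the factors around the mRNA cap, EIF4A1 had 2085 CPM in control and 2103 in starvation (0.01 [-0.01 to 0.04]), and EIF4E, which binds the cap, had 216 and 226 CPM (0.07 [-0.02 to 0.15]). EIF4B had 306 CPM in control against 379, 358 and 344 CPM in the starved libraries (0.31 [0.24 to 0.38]). EIF4G1, the scaffold, differed from these. It had 236 CPM in control and 139, 167 and 149 CPM in starvation, trans1 and trans2, so control stood above every starved library (-0.76 [-0.86 to -0.66]). Both windows gave lower values for EIF4G1 under starvation, -2.08 at the start and -0.94 at the stop.

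The kinases of EIF2 with footprints were both above 0. EIF2AK4, which senses uncharged tRNA, had 42.4 CPM in control and 59.5 in starvation, and 45.9 and 45.0 in trans1 and trans2. Starvation was the single high library (0.48 [0.31 to 0.67]), but each window alone gave a value below 0 (-0.18 at the start and -0.98 at the stop), from 18 to 31 window reads a library in control and starvation. EIF2AK1, the kinase activated by lack of heme, had 134 and 142 CPM (0.09 [-0.02 to 0.20]).

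Among elongation factors, EIF5A had 730 CPM in control, then 460, 385 and 459 CPM in starvation, trans1 and trans2. Control stood above all starved libraries (-0.66 [-0.72 to -0.61]), and both windows gave the same sign. EEF2 had 690 CPM in control, then 822, 673 and 867 CPM in starvation, trans1 and trans2, with no common order of control and starved libraries (0.25 [0.21 to 0.30], but -0.19 in the stop window alone). EEF2KMT, a methyltransferase that modifies EEF2, had 21.6 CPM in control, then 11.2, 8.96 and 22.5 CPM in starvation, trans1 and trans2. Its value of -0.89 [-1.30 to -0.61] was the lowest of all members, from 231 reads in control and 105 in starvation. In control 50 of the 231 reads lay at nucleotide 768. Without each library's highest position EEF2KMT was at -0.69, and RARS1 was lower, at -0.81.

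Of the 7 cytosolic synthetases, 3 were above 0 under starvation, with a median of -0.09. TARS1 (threonine) had 199 CPM in control and 215 in starvation, and KARS1 (lysine) had 164 and 175, both above 0. NARS1 (asparagine) had 175 and 164 CPM, EPRS1 (glutamate and proline) 49.5 and 44.9, and VARS1 (valine) 28.6 and 21.0. RARS1 (arginine) had 114 CPM in control and 70.8 in starvation (-0.68 [-0.83 to -0.55]). AIMP2, a scaffold of the complex that holds several synthetases, had 57.8 and 44.8 CPM (-0.36 [-0.55 to -0.18]). The mitochondrial synthetases, which charge tRNAs inside mitochondria, were all below 0: AARS2 -0.83 [-1.27 to -0.52], TARS2 -0.56 [-0.89 to -0.28] and LARS2 -0.04 [-0.32 to 0.24].

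**Figure D2:**
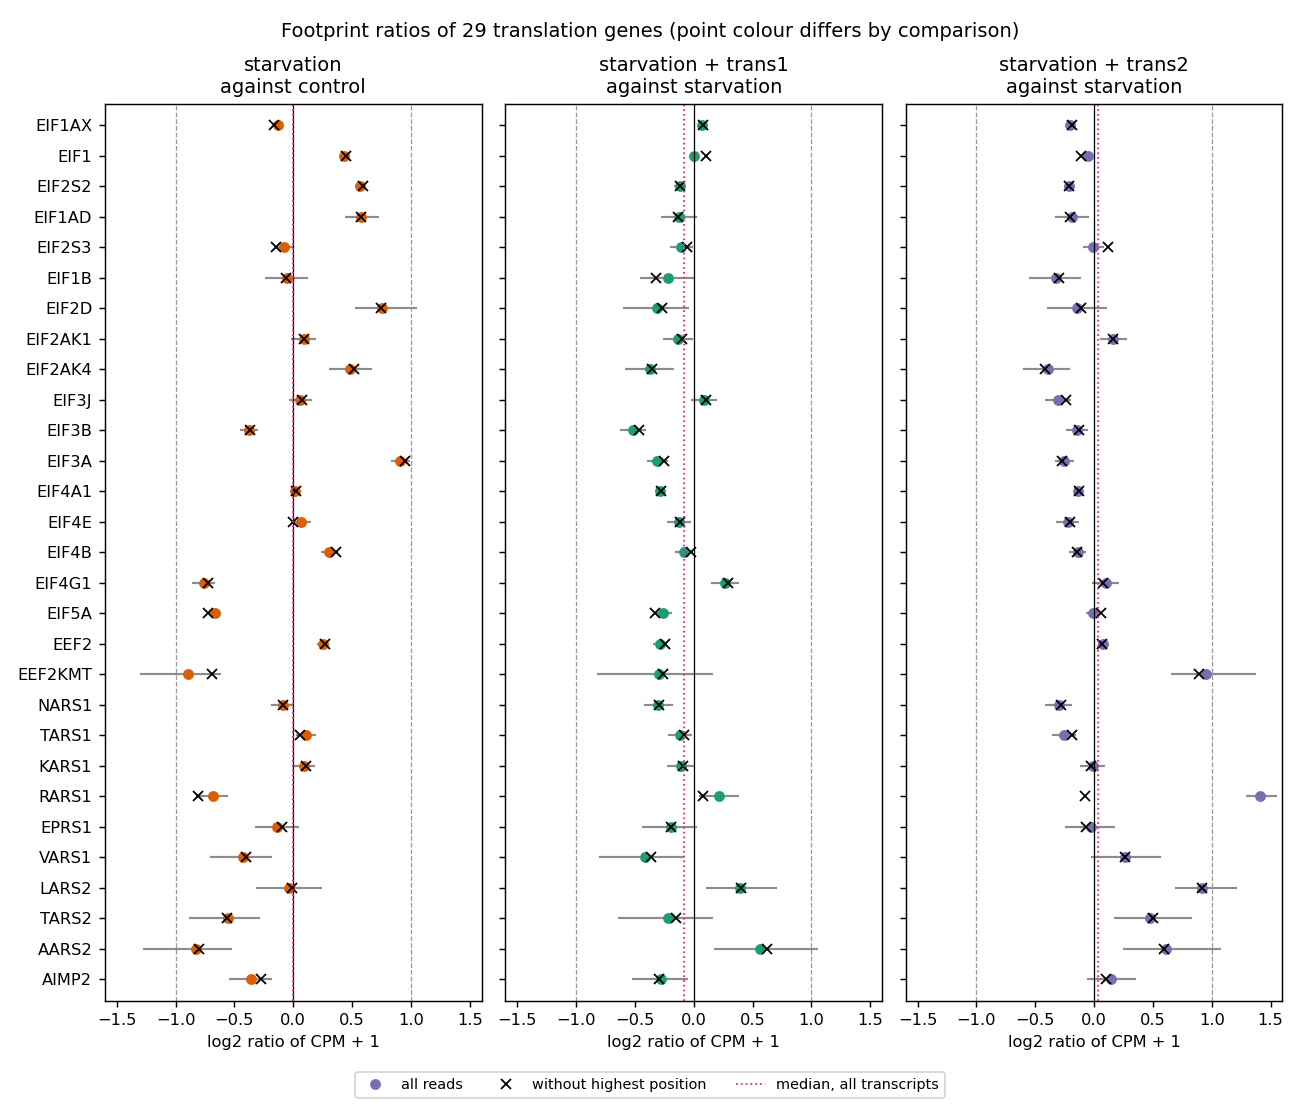
Log2 ratios of CPM + 1 for 29 members in the 3 comparisons, with exact 95% intervals of counting error (grey lines), the value without each library's highest position (crosses), the median of all transcripts (dotted) and 2-fold (dashed). RARS1 in trans2 is the only point beyond 2-fold, at 1.41, and lies at -0.081 without the highest position.

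The trans1 and trans2 comparisons share the starvation library, so their values stand side by side and are not independent. In trans1, no member was at least 2-fold higher (all transcripts 1.25%) or lower (all transcripts 1.14%) than in starvation. The members' median was -0.16, against -0.08 for 10093 transcripts, and 7 of 30 were above 0, against 41.2% of all. In trans2, 1 member, RARS1, was at least 2-fold higher (all transcripts 1.83%) and none lower (all transcripts 0.196%). Here the members' median was -0.10, against 0.04 for 10195 transcripts, and 10 of 30 were above 0, against 54.1% of all. Of the 14 members grouped by name as initiation factors, EIF1AD among them, 4 were above 0 in trans1 and 1 in trans2.

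Single initiation factors gave small differences in both. EIF3B was lowest of all members in trans1, at -0.51 [-0.63 to -0.41], and was -0.14 [-0.24 to -0.05] in trans2. EIF3A was -0.31 [-0.40 to -0.22] and -0.25 [-0.33 to -0.17]. EIF2S2 was -0.12 [-0.16 to -0.07] and -0.21 [-0.26 to -0.17], and EIF1 was 0.00 [-0.04 to 0.05] and -0.05 [-0.10 to -0.01]. EIF1AX was 0.07 [0.04 to 0.11] in trans1 and -0.21 [-0.24 to -0.17] in trans2, and EIF3J was 0.09 [-0.02 to 0.20] and -0.30 [-0.42 to -0.20], so these pairs had opposite signs. EIF4G1 was 0.26 [0.15 to 0.38] in trans1 and 0.10 [-0.02 to 0.22] in trans2. The start window alone gave -1.47 for EIF4G1 in trans1, where 53 reads fell in both windows together. EIF2AK4 was -0.37 [-0.59 to -0.17] and -0.40 [-0.60 to -0.21], and EIF2D was -0.31 [-0.60 to -0.04] and -0.14 [-0.40 to 0.11]. The windows turned several of these signs. In trans1, EIF2AK4 was at 0.39 in the start and 0.52 in the stop window, EIF2D at -1.39 and 0.32, and EIF3A at 1.22 and -0.68. In trans2, EIF2AK4 was at -0.70 in the start and 0.92 in the stop window, and EIF2S2 at -0.60 and 0.14. EIF2AK4 had 15, 14 and 6 start-window reads and 3, 4 and 7 stop-window reads in starvation, trans1 and trans2. These are too few for values by window.

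In trans2 all 3 mitochondrial synthetases were above 0, with LARS2 at 0.92 [0.69 to 1.22], AARS2 at 0.61 [0.25 to 1.08] and TARS2 at 0.47 [0.17 to 0.83]. LARS2 had 21.5 CPM in control, then 21.0, 27.8 and 40.5 CPM in starvation, trans1 and trans2, so trans2 stood apart. The start window alone gave 0.45 for LARS2 in trans2 and the stop window -1.04, the latter from 7 reads in starvation and 1 in trans2. AARS2 had 17.6, 9.48, 14.5 and 15.0 CPM in the same order, and TARS2 had 23.3, 15.5, 13.2 and 22.0 CPM. In these 2 genes trans2 lay between starvation and control. Their reads were few, from 81 to 306 a library over the 3 genes. In trans1, LARS2 was 0.39 [0.10 to 0.71], AARS2 0.56 [0.17 to 1.05] and TARS2 -0.22 [-0.65 to 0.16]. The 11 reads of AARS2 in the windows in starvation and 2 in trans1 are too few for values by window.

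Of the cytosolic synthetases, 1 of 7 was above 0 in trans1 and 2 of 7 in trans2. NARS1 was -0.30 in each, with intervals of [-0.43 to -0.18] and [-0.42 to -0.19]. VARS1 was -0.42 [-0.81 to -0.08] in trans1 and 0.26 [-0.03 to 0.56] in trans2. TARS1 was -0.12 [-0.22 to -0.01] and -0.25 [-0.35 to -0.15]. KARS1 was -0.11 [-0.23 to 0.00] and -0.01 [-0.12 to 0.09], and EPRS1 was -0.20 [-0.44 to 0.03] and -0.03 [-0.24 to 0.18]. EEF2KMT was -0.29 [-0.82 to 0.16] in trans1 and 0.95 [0.65 to 1.37] in trans2, just inside 2-fold. EEF2 was -0.29 [-0.34 to -0.23] and 0.08 [0.03 to 0.12], EIF5A -0.26 [-0.33 to -0.19] and -0.01 [-0.07 to 0.06], and EIF1B -0.22 [-0.45 to 0.00] and -0.33 [-0.55 to -0.12].

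RARS1, the arginine tRNA synthetase, had 1219 reads in control, then 665, 505 and 1432 reads in starvation, trans1 and trans2 (114, 70.8, 82.2 and 190 CPM). Much of this was a single position. The files give reads per nucleotide in windows of -30 to 300 around the start codon and of -300 to 30 around the stop codon. In all 4 libraries the highest position of RARS1 was nucleotide 1891, counted from the start codon, in a coding length of 1986 nt. It held 151 reads in control, then 145, 152 and 1032 reads in starvation, trans1 and trans2, or 25.6%, 41.1%, 59.1% and 87.2% of the window reads. In trans2 the second highest position held 10 reads. The nucleotide before it held 2, 6, 4 and 5 reads in the same order of libraries, and the 6 after it held 0 reads in every library. Position 1891 lies in frame 1, where frame 0 is that of the start codon. Frame 1 held 90.0% of the RARS1 reads in the coding part of the windows in trans2 and 33.3% in control, against 7.91% and 6.75% over all transcripts. Without the highest position, RARS1 in trans2 was at -0.081, and the start window alone gave 0.065. Under starvation RARS1 stayed lower, at -0.81 without that position and -1.05 in the start window.

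In starvation, trans1 and trans2 the other members with at least 20 window reads were spread more evenly. In control EEF2KMT had the highest share, 31.25% of 160 window reads at nucleotide 768, above that of RARS1. Over members with at least 20 window reads, the median share at the highest position was 11.3%, 12.8%, 14.2% and 10.7% in control, starvation, trans1 and trans2. Over all transcripts the medians were 12.6%, 16.7%, 17.8% and 12.4%. RARS1 was the only member with over 50% of its window reads at 1 position, in trans1 and trans2 and in none of control and starvation. Over all transcripts this held for 1.22%, 2.37%, 3.12% and 1.56% in the same order. Members with few window reads also had high shares, such as EIF2AK4 with 27.8% of 18 reads in starvation.

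Of the 27 members with at least 20 window reads in each library, 6 (22.2%) had the same highest position in all 4, against 14.2% of 7974 transcripts. Besides RARS1 these were EEF2 at nucleotide 171, EIF2S3 at 1212, EIF3A at 4017, EIF3B at 2364 and EIF3J at 135, all in frame 0. EIF2S3 at 1212 held 204, 321, 175 and 95 reads in control, starvation, trans1 and trans2, or 14.5%, 26.3%, 21.7% and 10.8% of its window reads. EIF3J at 135 held 265, 258, 187 and 115 reads, or 16.3%, 16.8%, 16.9% and 11.7%. EEF2 at 171 held 272, 346, 125 and 273 reads, or 12.7%, 15.9%, 13.7% and 13.1%. Across members, the highest position was in frame 0 for 29 of 30 (control), 24 of 27 (starvation), 25 of 27 (trans1) and 26 of 28 (trans2). For EIF1 the highest position was nucleotide -12, before the start codon, in control (11.8%), starvation (12.7%) and trans2 (15.9%). In trans1 it was nucleotide 168 (7.14%). Which offset placed the footprints is not stated in the sources used here.

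**Figure D3:**
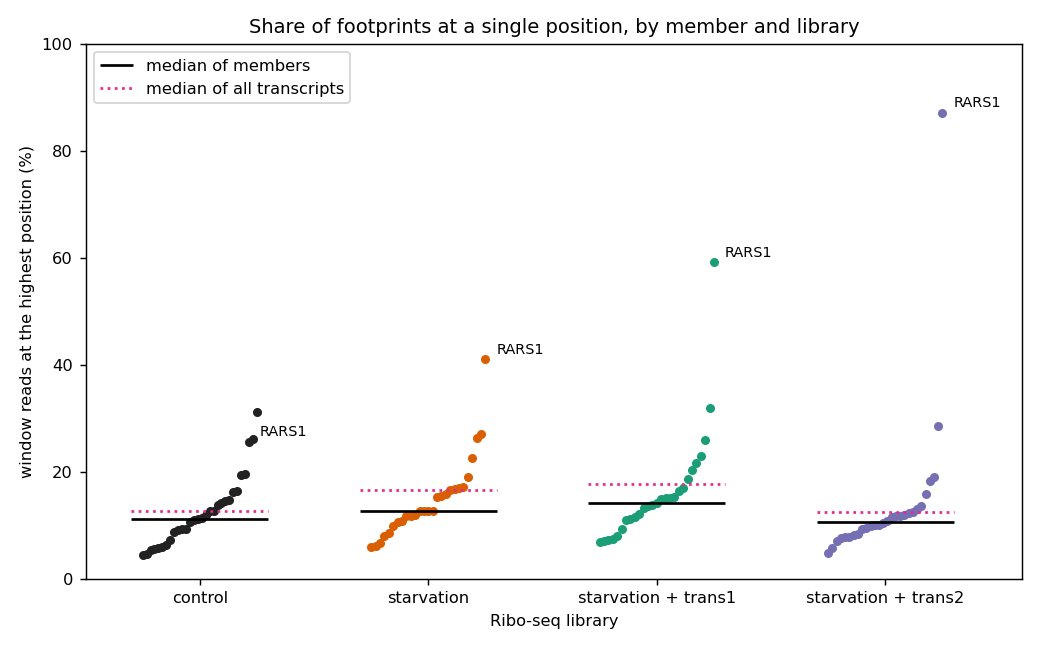
Share of window reads at the highest position for each member with at least 20 window reads, by Ribo-seq library, with medians of the members (solid) and of all transcripts (dotted). RARS1 is at 25.6%, 41.1%, 59.1% and 87.2% from left to right, and no other member passes 50% in any library.

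The authors' deposited table of log2 fold changes per open reading frame holds 130 frames on 35 members. For 38 coding frames of 29 members, complete or truncated, the authors' deposited table has a median of -0.04 for starvation against control, where all 11535 such frames have -0.04. It has -0.45 in trans1 (all -0.33) and -0.36 in trans2 (all -0.14), and none of the 38 passes 2-fold in any comparison. Other frames spread more. For 17 upstream frames of 8 members the authors' deposited table has a median of -0.60 under starvation (all 7724 such frames -0.15), with 4 at 2-fold or more in either direction. For 51 internal frames of 19 members, the authors' deposited table has 7, 6 and 10 at 2-fold or more in either direction in starvation, trans1 and trans2. The share of all frames past 2-fold was not computed, so these counts do not set the members apart. Frames of the same gene can carry the same value, as upstream frames of EIF1B do at -1.18 under starvation, and are not independent. For RARS1 the authors' deposited table lists a truncated coding frame at -0.36 in trans2, and for EEF2KMT one at 0.09. For EIF2S2 the complete frame stands in the authors' deposited table at 0.36, -0.68 and -0.56 in starvation, trans1 and trans2. The same table gives 7 members without recovered footprints, among them EIF4A2 at 0.42, -0.33 and -0.45 and EIF4H, a partner of EIF4A, at 0.27, -0.87 and -0.47. The scaling of these folds is unknown, so they are not set against the ratios above.

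Of 55 other translation genes listed for context, 22 were in the peak lists and 14 had footprints in at least 2 libraries. None passed 2-fold in any comparison, and GSPT2 had no value in trans2. 6 of them were above 0 in each comparison, with medians of -0.25, -0.02 and -0.03. The ribosomal protein RPS6 had 2178, 1703, 2516 and 1505 CPM in control, starvation, trans1 and trans2, with trans1 the highest. ABCE1, which splits ribosomes after termination, had 108, 71.6, 59.8 and 73.7 CPM, with control the highest. RPTOR, the mTOR partner, was lowest of these under starvation at -0.86, from 240 reads in control and 112 in starvation.

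The 4 member genes with a TOP start and footprints had ratios of both signs. Under starvation EIF2D was at 0.76, EIF4B at 0.31, EEF2 at 0.25 and EIF2S3 at -0.08. In trans1 all 4 were below 0, from -0.31 to -0.08. In trans2, 1 of 4 was above 0, over a range of -0.14 to 0.08.

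In the small RNA lists, members had 62 sense peaks in 17 genes in the total library and 35 sense peaks in 25 genes in the capped library. A peak is a position with at least 4 reads in the authors' lists. On the antisense strand there were 7 peaks in 7 genes and 6 peaks in 6 genes. The lists hold peaks only, so their sums are not library depths and levels were not compared between the libraries. Sense peaks in the capped list were found for 25 of 44 members (56.8% [41.0 to 71.7]), where the share over all 5745 named genes was 53.2%. For the total list it was 17 of 44 (38.6% [24.4 to 54.5]) and 35.7%. Both lists held 6 of the members, which is 24.0% of the capped and 35.3% of the total genes. Every member is in at least 1 list, because the members were chosen from these lists.

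The libraries differed in where the members' peaks lay. In the capped list, 28 of 35 sense peaks (80.0% [63.1 to 91.6]) were in the 5′ leader, 7 in the coding region and 0 in the 3′ UTR, for which 0 of 35 allows up to 10.0%. Over all genes the shares were 61.7%, 23.9% and 14.4%. In the total list, 58 of 62 (93.5% [84.3 to 98.2]) were in the coding region, 1 in the leader and 3 in the 3′ UTR, where all genes had 56.9%, 12.8% and 30.2%. Peaks of 1 gene share their RNA, and EEF1A1 alone had 34 of the 62. The intervals count each peak as independent and so can be too narrow. Counted by gene, 21 of 25 members with capped sense peaks (84.0%) had one in the leader, against 64.6% over all genes. In the total list 16 of 17 (94.1%) had one in the coding region, against 64.7%. Without EEF1A1, 25 of 28 (89.3%) were in the coding region.

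EEF1A1 had 355 of the 579 total-library reads at member peaks. Its highest peak, at nucleotide 586 of the coding region, had 98 reads, and the median of its 34 peaks was 6.5 reads. The next strongest stood at 117 (19 reads), 1400 (18 reads) and 762 (16 reads), and the capped list held no EEF1A1 peak. EEF2 had 6 peaks of 4 to 6 reads in the total list, 4 in the coding region and 2 in the 3′ UTR, and none in the capped list. EIF4G1 had 5 coding peaks of 4 to 6 reads between nucleotides 2901 and 4010. EIF2S3 had 3, of 4 to 5 reads. CARS1 (cysteine) had a single strong total peak, at nucleotide 1951, with 82 reads. The remaining total peaks included EIF4A1 with 5 and 8 reads, EIF4H and TARS2 with 6 each, and PABPC1, the poly(A) binding protein, with 5.

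In the capped list EIF4A2 was strongest, with 48 reads at position -34 before its start codon and no peak in the total list. PABPC1 had 4 neighbouring peaks from -505 to -502 with 13, 5, 10 and 8 reads. EIF2B5, the catalytic subunit of the factor that recharges EIF2 with GTP, had peaks at -11, -7 and -4 with 12, 9 and 8 reads. EIF4A1 had 16 reads at -14 and 9 at -16. EIF4E1B, an EIF4E paralog known from oocytes, had 24 reads at 606 in the coding region, and EIF1AX and KARS1 had 17 each, at -195 and -99. EEF2KMT had peaks at -23, -6 and 40 with 7, 4 and 6 reads. For the 21 members with a capped leader peak, the strongest lay at a median of -59, from -505 to -8, against a median of -126 over 1975 genes. 9 of the 21 (42.9%) lay within 50 nt of the start codon, against 24.1% of all genes.

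**Figure D4:**
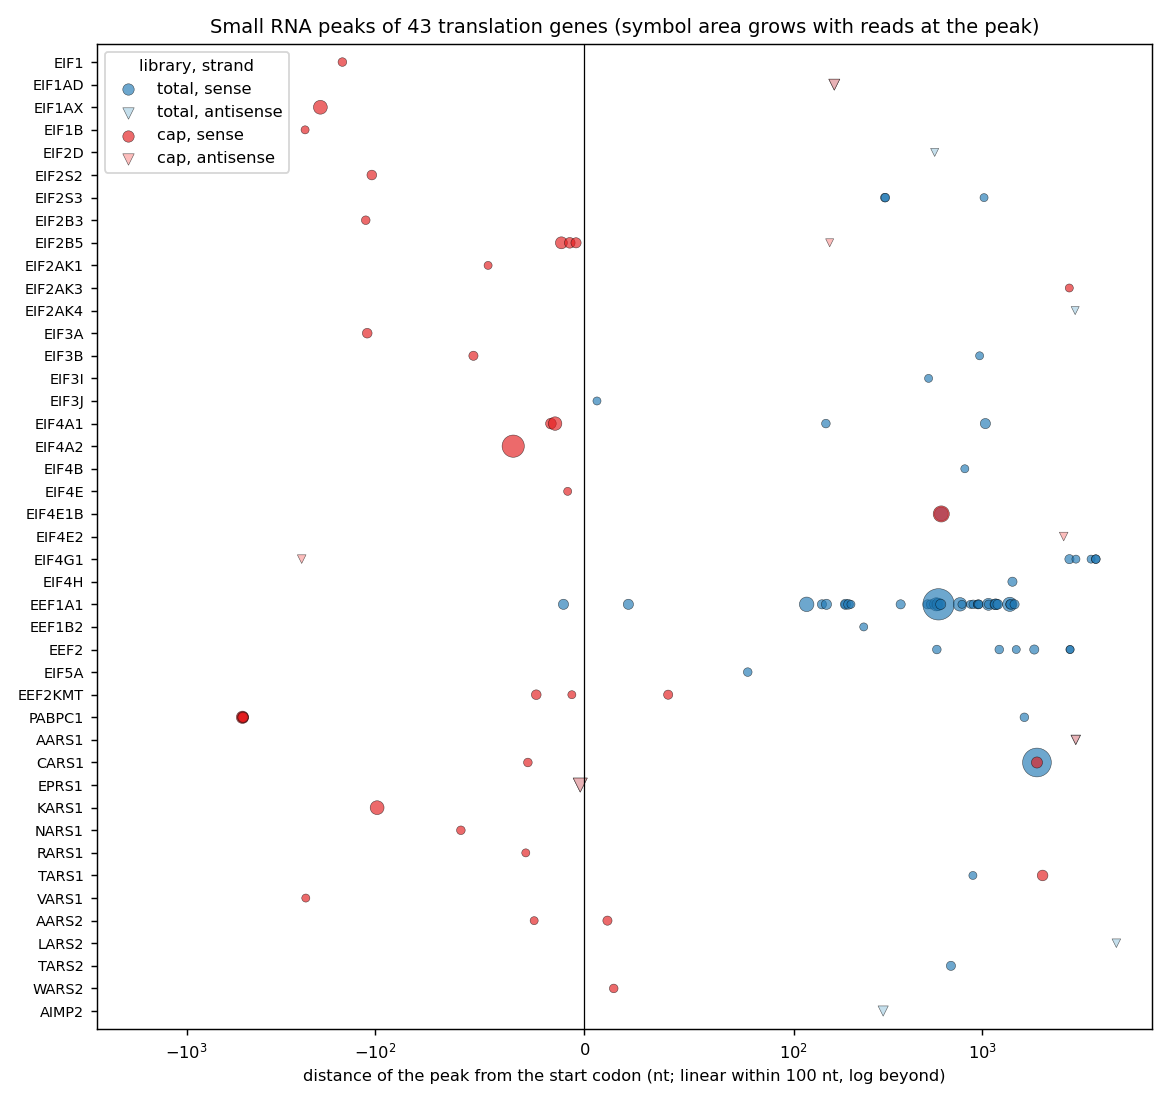
Small RNA peaks of 43 members by distance from the start codon in nt (linear within 100 nt, log beyond), coloured by library, with circles for sense and triangles for antisense, and area growing with reads at the peak. Capped sense peaks (red) lie mostly before the start codon, and total sense peaks (blue) mostly after it.

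Shared positions were few on the sense strand. CARS1 at 1951 had 82 reads in the total and 10 in the capped list, and EIF4E1B at 606 had 17 and 24. These 2 are 5.71% of the capped and 3.23% of the total sense peaks of the members, where all genes had 23.2% and 30.6%. On the antisense strand 3 positions were shared, with nearly the same reads in both lists. EPRS1 at -2 had 17 reads in total and 18 in capped, EIF1AD at 164 had 9 and 10, and AARS1 (alanine) at 3134 in the 3′ UTR had 7 and 6. These 3 are 50.0% of the capped and 42.9% of the total antisense peaks, where all genes had 51.8% and 38.7%.

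The capped peaks could be set against the RefSeq starts printed above. If a peak at distance d before the start codon marks the 5′ end, an ATG should stand d bases after the RefSeq start. Over all genes with 1 start and a capped sense leader peak at -44 or nearer, 88 of 378 peaks (23.3%) met this exactly. With the start moved by 1 to 8 nt either way, at most 5.82% did. Of 8 such member peaks, the EIF4A2 peak (48 reads) met it, with the ATG at 34, so that the peak falls on the first capital of its TOP run. The RARS1 peak at -28 (4 reads) also met it, with an ATG at 28 that follows another at 20, so it is the second ATG there. The EIF4A1 peaks at -16 and -14 lay 1 and 3 nt downstream of its RefSeq start, and the EIF2B5 peaks 17, 21 and 24 nt downstream. A match of letters describes the annotation and does not show which start was used.

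**Figure D5:**
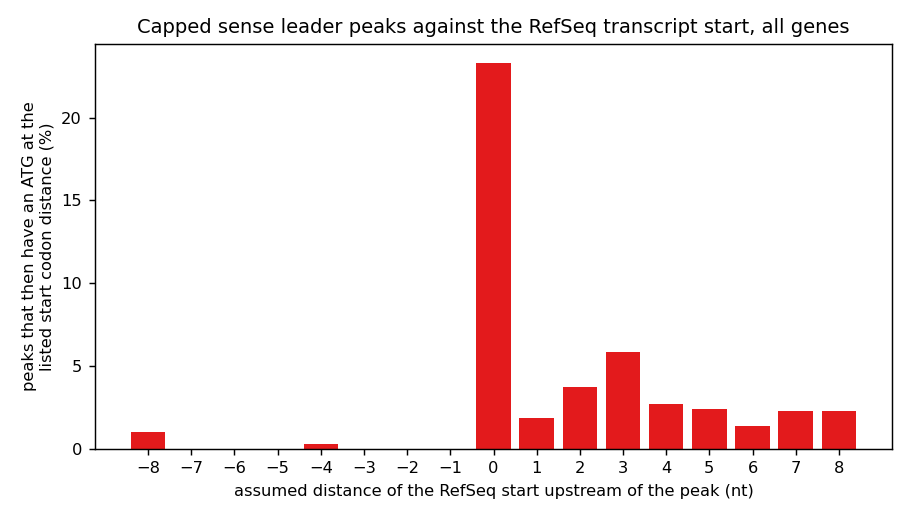
Percent of capped sense leader peaks, over all genes with 1 RefSeq start, whose start codon distance matches an ATG when the RefSeq start is assumed 0 to 8 nt upstream (positive) or downstream (negative) of the peak. The bar at 0 stands at 23.3% and no other bar passes 5.82%.

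Footprints were also set beside the capped leader peaks. The 16 with a peak and recovered footprints had a median of 168 CPM in control and 169, 147 and 181 CPM in the starved libraries, and the 14 without had 119, 121, 131 and 117 CPM. Their median ratios were -0.02 and 0.01 under starvation, -0.17 and -0.16 in trans1, and -0.14 and -0.02 in trans2. The small RNA libraries carry no starvation or trans-RNA label, so these peaks were not compared between conditions.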

How the data were processed

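Per the file headers and values, the authors deposited footprint density as a signal for every nucleotide near start and stop codons, scaled within each transcript. Values of a transcript come in steps of coding length over reads, from which reads and lengths were recovered for 10281 of 16984 transcripts. A simulation used 1500 transcripts already recovered in all 4 libraries, with reads drawn evenly along the coding length. There 97.5% of library values came back exactly and 2.51% with too short a length. With too short a length, reads and CPM come out too low in each library alike. Real reads lie less evenly, so these shares may not hold for the data. The authors' fold tables hold log2 values of unknown scaling, and the deposited small RNA lists give read counts per peak, with a lowest value of 4. Per the submitters' processing notes, STAR 2.7.10a, Bowtie 1.2.3, cutadapt 2.8, bcl2fastq 2.20.0.422 and the build GRCm39 were used, with no role named. GRCm39 is a mouse build, while the tables used here hold human transcript IDs, and the mismatch was not settled. CPM over recovered reads, a pseudocount of 1 CPM and a filter of 1 CPM in at least 1 library were used. With 1 library per group, no test was run. Symbols came from the peak lists and covered 2906 recovered transcripts. Members and lists were chosen with earlier results of these data known. Named members are the 6 highest and 6 lowest per comparison with at least 10 CPM, those with over 50% of window reads at 1 position, and the strongest in peak lists and role groups. Others were named after their values were seen. By name, 1 member is not reported here, but counts and medians include it. Python 3.11.15, pandas 2.3.3 and scipy 1.17.1 were used. Alternatives are listed in the closing section.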

Additional observations from a re-analysis of the deposited data

How the results depend on the processing

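No paired analysis was possible because each group is 1 library. Of 536 values of single members under settings that can change them, 61 turned sign. Of the 536, 154 moved by more than the counting error of the ratio from all reads. A window holds fewer reads and its own counting error was not computed, so moves by window are not shown to exceed it. The windows account for most: 73 of 90 values moved and 28 turned with the start window alone, and 65 of 86 moved and 29 turned with the stop window alone. EIF3A under starvation went from 0.91 to -1.10 (start), EIF2AK4 from 0.48 to -0.98 (stop), and LARS2 in trans2 from 0.92 to -1.04 (stop). The window values rest on 103 reads in control and 40 in starvation for EIF3A, and 11 and 3 for EIF2AK4. That of LARS2 rests on 7 reads in starvation and 1 in trans2. RARS1, the 1 member past 2-fold, went to -0.081 in trans2 without the highest position. The sign was the same under every footprint alternative for 14 of 30 members under starvation, 14 in trans1 and 10 in trans2.

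For counts past 2-fold by window and for those past 1.5-fold, the share of all transcripts follows in brackets. No such share was computed for the other counts given here. The start window alone gave 1 member higher (5.38%) and 5 lower (8.42%) under starvation, 1 higher (5.36%) and 2 lower (8.21%) in trans1, and 2 higher (8.83%) and 1 lower (2.11%) in trans2. The stop window alone gave 2 lower (9.09%) under starvation, 1 lower (10.5%) in trans1, and 2 higher (9.28%) and 1 lower (2.98%) in trans2. A threshold of 1.5-fold gave 2 higher (10.3%) and 5 lower (10.1%) under starvation and 4 higher (8.58%) in trans2. In trans2, a pseudocount of 0.1 CPM gave 2 higher and leaving out the highest position gave 0. The start and stop windows gave medians of -0.11 and -0.13 under starvation and of 0.073 and 0.054 in trans2. By start window alone 0 members had over 50% of the reads at 1 position, and by stop window alone 4 (EEF2KMT, EIF2S3, EIF5A and RARS1).

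With peaks of at least 8 reads, the total list kept 17 sense coding and 0 sense 3′ UTR peaks, and 2 antisense coding and 0 antisense 3′ UTR peaks. The capped list kept 11 sense leader and 3 sense coding peaks, and 1 antisense leader, 1 antisense coding and 0 antisense 3′ UTR peaks. With at least 16 reads the total list kept 6 sense coding peaks and 0 in the sense leader, the sense 3′ UTR, the antisense coding region and the antisense 3′ UTR. The capped list kept 4 sense leader, 1 sense coding and 1 antisense leader peak, and 0 antisense coding and 0 antisense 3′ UTR peaks. Members with a peak of at least 8 reads were 20.5% in the capped and 9.09% in the total list, and with both strands 54.5% were in the total list. Using every RefSeq start, an alternative chosen after seeing the data, gave 22.2% of 483 capped leader peaks at a start. The cause of these differences was not tested. Each member has 1 transcript, so the alternatives on transcripts changed nothing.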
